A study of Mus musculus with 12 samples.

Results

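The 10 genes described here encode elastin, proteins that assemble and cross-link the elastic fibre, and the matrix glycoprotein SPARC with a close relative. They are 10 of the 21705 genes in a table of liver mRNA, and all 10 have a row. Sparc and Eln were picked from the table for their higher values in LNA29 livers, so their difference between the groups is given as a description without a test. The other 8 (Sparcl1, Fbn1, Fbln5, Mfap2, Emilin1, Lox, Loxl1 and Loxl2) were chosen by function, as relatives and partners of those genes, but with earlier results of these data known, which limits what their tests can show.

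An elastic fibre has a core of elastin, which cells secrete as the soluble monomer tropoelastin, laid on a scaffold of microfibrils built mainly from fibrillin. Fibulins bring tropoelastin to the microfibril, and lysyl oxidases cross-link it into an insoluble, recoiling polymer. SPARC is a calcium- and collagen-binding glycoprotein that modulates how cells make and contact matrix; in liver it is known from stellate and endothelial cells, and elastic fibres lie mainly in vessel walls, portal tracts and the capsule.

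The livers came from female C57BL/6J mice without a transgene, which were 10 to 12 weeks of age at injection. In the saline group, 6 mice received saline into the tail vein, and in the LNA29 group 6 mice received a mixture of locked nucleic acid inhibitors by the same route, 20 mg/kg against miR-29a and 20 mg/kg against miR-29b and miR-29c. All livers were taken on day 7 after an 18 h fast. Because the comparison group received saline and not a control oligonucleotide, effects of miR-29 inhibition and of an injected oligonucleotide as such cannot be told apart in these livers.

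The sequences that name the treatment are the mature mouse miR-29 forms, which share the same seed, the stretch of bases 2 to 8 that pairs with target mRNAs. They are printed 5′ to 3′ from RefSeq (GRCm38.p6), with the seed in capitals; the 4 miR-29 loci give 3 distinct mature sequences, since miR-29b comes from 2 loci.
miR-29a-3p: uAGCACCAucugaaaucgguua
miR-29b-3p: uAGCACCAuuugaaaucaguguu
miR-29c-3p: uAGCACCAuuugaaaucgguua
The complement of this seed in an mRNA is TGGTGCT. It was searched on the mRNA strand only, in the longest 3′ UTR that GENCODE release M21 (GRCm38) annotates for each gene, and 13.1% of the 3′ UTRs of 21020 genes held it at least 1 time.

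Values are normalised read counts scaled within a liver to an upper quartile of 1000, genes without reads left aside, and a gene without reads is listed at 1. Summed over genes, depth came to about 8217212 to 19062479 reads in the saline group (median 12011973) and 7696095 to 15079236 in the LNA29 group (median 9123470). With 1 read worth between 9.80 and 24.4 in this unit, Sparc rested on 142 to 598 reads a liver and Eln on 13 to 149, whereas Fbn1, Mfap2, Fbln5, Lox, Loxl1 and Loxl2 never exceeded 15 reads. Fold changes are on the log2(value + 1) scale, LNA29 minus saline, where a liver without reads, listed at 1, weighs strongly. Saline 49 stood apart from the other livers before any comparison. Albumin took 35.7% of its reads, against 43.6% to 46.9% in the other 11 livers, and its values leaned towards long transcripts (Spearman's rho of 0.50 across genes within the liver, against -0.30 to 0.28 in the others).

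The tissue label was checked against its defining markers. All 5 hepatocyte markers (Alb, Ttr, Apoa1, Serpina1a and Cyp2e1) had reads in all 12 livers, with Alb the most abundant gene at a mean of 76683976. Their summed value was lowest in saline 49, at 33102083, with a median of 90504305 in saline and 90756038 in LNA29 livers.

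Eln, the gene of tropoelastin and so of the fibre core, had values of 203 to 737 in saline livers, with a median of 417, and of 756 to 2377 in LNA29 livers, with a median of 1719. The highest saline liver (replicate 47) lay just under the lowest LNA29 liver (replicate 46), so that the groups did not overlap but almost touched. The other 5 LNA29 livers were at 1466 or above, and the highest was replicate 48. This is a log2 fold change of 1.93 (SE 0.30, n = 6 a group), or 3.82-fold. Without saline 49 it was 1.98. By this value it stood at rank 47 of the 12486 tested genes, and at rank 5 of the 8990 whose mean reached 100, which describes how it was picked and is no test.

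The 3′ UTR of Eln (1188 bases, chromosome 5, minus strand) held 3 matches to TGGTGCT within 304 bases of the stop codon. Among 1401 genes with a 3′ UTR of similar length (within 10%), 2 (0.143%) held as many. The stretches are shown because Eln holds the densest set of these matches among the 10 genes; capitals mark the match, and the coordinates on GRCm38 are chr5:134703729-134703757, chr5:134703482-134703510 and chr5:134703469-134703497, all on the minus strand.
Eln site 1: gacctcatcaacgtTGGTGCTactgcttg
Eln site 2: tctccaagggaaatTGGTGCTacatgttg
Eln site 3: ttggtgctacatgtTGGTGCTtcttcttt
Sites 1 and 2 are followed by A, a form that 2.85% of all 3′ UTRs hold at least 1 time, and sites 2 and 3 start 13 bases apart. The coding sequence of Eln, searched after the data were seen, held 11 further matches to TGGTGCT, whereas the highest count among 1262 other coding sequences of similar length was 5 and their median was 0. Those coding sequences were matched for length only, not for base composition or repeats. A match is a run of letters, and binding was not measured.

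The microfibril genes had few reads. Fbn1, which encodes fibrillin-1, the main microfibril protein, had values of 17.5 to 47.6 in saline livers, with a median of 25.1, and of 35.7 to 169.8 in LNA29 livers, with a median of 95.1. The groups overlapped: 4 of 6 LNA29 livers lay above all saline livers, while replicates 44 and 50 fell inside the saline range. In reads, saline livers had 1 to 3 each (13 in all) and LNA29 livers 2 to 9 (30 in all), a ratio of 3.14 after the scaling to the upper quartile, with a 95% interval of 1.59 to 6.57 that covers counting error only. The log2 fold change was 1.52 (SE 0.50), and limma's adjusted p over all 12486 tested genes was 0.342, between 0.114 and 0.546 over the alternatives tried; a two-sided exact permutation test of the livers gave p = 0.0108 without adjustment. Fbn1 thus did not pass the threshold of 0.05.

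The 3′ UTR of Fbn1 (992 bases, chromosome 2, minus strand) held 2 matches to TGGTGCT, and 0.597% of 1341 genes of similar 3′ UTR length held as many. They are shown for comparison with those of Eln (chr2:125301166-125301194 and chr2:125300916-125300944, GRCm38, minus strand).
Fbn1 site 1: ttctgttgtctgttTGGTGCTagtaaatt
Fbn1 site 2: gtgagggtttgtaaTGGTGCTtattaaga
Mfap2, which encodes a small glycoprotein bound to fibrillin microfibrils, never exceeded 3 reads in a liver, so that no fold change is given. It had 3 reads over the 6 saline livers and 8 over the 6 LNA29 livers, with no read in 3 saline livers and in 1 LNA29 liver. Its 3′ UTR of 404 bases held 1 match, which 4.35% of 3′ UTRs of similar length also held.

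Emilin1, a glycoprotein found where elastin meets the microfibril, was the other elastic fibre gene with ample reads. Its values were 580 to 1088 in saline livers, with a median of 929, and 488 to 1000 in LNA29 livers, with a median of 736. The groups overlapped over most of their range, and 5 of 6 LNA29 livers lay under the saline median. The log2 fold change was -0.30 (SE 0.20, limma adjusted p = 0.783, exact permutation p = 0.162), in the other direction from that of Eln. Without saline 49, the lowest saline liver for Emilin1, it was -0.42 (limma adjusted p = 0.595). Without LNA29 replicate 46, the lowest LNA29 liver, it was -0.19 (limma adjusted p = 0.895). Fbln5, the fibulin that tethers tropoelastin to microfibrils and to integrins, had a median of 89.3 in saline livers, the highest being saline 45 at 206 and the lowest saline 49, and values of 37.5 to 113 in LNA29 livers, with a median of 74.3. Those values stand for 3 to 13 reads, and the LNA29 range lay inside the saline range. Its log2 fold change of -0.30 (SE 0.46, limma adjusted p = 0.927) depended on single saline livers, being -0.05 without saline 45 and -0.59 without saline 49.

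The cross-linking enzymes were scarce in these libraries. Lox, the founding lysyl oxidase, had no read in any LNA29 liver and a single read in saline 51 and in saline 53, so that it was the only 1 of the 10 genes below the mean of 10 needed for testing. Loxl2, a relative known for collagen IV cross-linking, had values of 35.1 to 150 in saline livers, with a median of 48.7, and of 48.8 to 189 in LNA29 livers, with a median of 106. All 6 LNA29 livers were above the saline median, but saline 49 lay above 5 of them. The log2 fold change was 0.65 (SE 0.46, limma adjusted p = 0.797; exact permutation p = 0.173) and 0.91 without saline 49 (limma adjusted p = 0.659). Loxl1, which localises to elastic fibres and is required for their upkeep, had medians of 74.3 and 43.3 in saline and LNA29 livers. Its LNA29 values spread from 1 (no read, replicate 54) to 125 (replicate 44) and enclosed the whole saline range of 20.0 to 101. Its log2 fold change of -1.12 (SE 0.81, limma adjusted p = 0.797) was -0.34 without LNA29 replicate 54, and its group means had a ratio of 0.717.

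In their 3′ UTRs, Loxl2 held 2 matches to TGGTGCT, both followed by A, and Lox held 3, none followed by A, while Loxl1 held 0. As many were held by 3.85% of genes of similar 3′ UTR length for Loxl2 and by 0.477% for Lox, whose 3′ UTRs are long, and at least 1 by 24.1% and 27.1%. The shorter annotated 3′ UTR of Loxl2 held 0. The Loxl2 stretches lie at chr14:69694734-69694762 and chr14:69695096-69695124 (GRCm38, plus strand).
Loxl2 site 1: cccagctcatggaaTGGTGCTactggtgt
Loxl2 site 2: gatagcattgtgaaTGGTGCTaatatagg

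Sparc was the most abundant of the 10 genes and had the tightest groups. Its values were 2120 to 2765 in saline livers, with a median of 2569, and 5683 to 9547 in LNA29 livers, with a median of 7039. Every LNA29 liver had more than any saline liver, with a gap between the groups wider than the whole saline range; saline 49 was the lowest saline liver and LNA29 replicate 48 the highest of all. Group means were 2513 ± 238 and 7252 ± 1384 (SD over 6 livers). On the log2 scale the difference was 1.51 (SE 0.14), or 2.85-fold, and it was 1.47 without saline 49. Sparc stood at rank 106 of the 12486 tested genes, and at rank 9 of the 8990 whose mean reached 100. Groups that do not overlap, with LNA29 higher, were seen for 34 of the 12486 tested genes (0.272%), Sparc and Eln among them, and with LNA29 lower for 0.713%; nothing is read from this since both were picked for their rise.

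The 3′ UTR of Sparc (1085 bases, chromosome 11, minus strand) held 0 matches to TGGTGCT. A search added after the data were seen, for the complement of bases 2 to 7 followed by A (GGTGCTA, whose first 6 letters are the last 6 of TGGTGCT), found 2 matches, 33 bases apart and within 149 bases of the stop codon. Among 1385 genes with a 3′ UTR of similar length, 2 (0.144%) held 2 or more of these, and 6.59% of all 3′ UTRs held at least 1. They lie at chr11:55395461-55395489 and chr11:55395428-55395456 (GRCm38, minus strand) and are shown because, unlike those of Eln, Fbn1 and Loxl2, they have no T before GGTGCT.
Sparc site 1: ccgcctggggataaGGTGCTAacatagat
Sparc site 2: ctgaatacattaacGGTGCTAaaaaaaaa
Fbln5 held 1 such match without a TGGTGCT, and Sparcl1, Emilin1 and Loxl1 held neither form.

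Sparcl1, the closest relative of Sparc and likewise a secreted collagen-binding glycoprotein, had values of 152 to 302 in saline livers, with a median of 208, and of 132 to 300 in LNA29 livers, with a median of 232. The groups overlapped almost wholly. Its log2 fold change was 0.02 (SE 0.29, limma adjusted p = 0.991; exact permutation p = 0.937), and it changed sign when any of 6 livers was left out. Of the 8 genes not picked for their rise, 7 could be tested (Mfap2 only because LNA29 livers lifted its mean over 10, with group means of 7.75 and 22.9) and 0 had a limma adjusted p under 0.05, where 20 of the 12486 tested genes had one (0.160%, of which 0.0721% higher and 0.0881% lower); 1 of the 7, Fbn1, had an unadjusted p under 0.05, against 7.91% of all tested genes. The count of 20 rested on single livers, being 1 without saline 43, LNA29 50 or LNA29 54, 3 without saline 51, 7 without saline 53, 9 without LNA29 46, 10 without LNA29 52 and 11 without saline 47, and 19 without saline 49.

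**Figure D1:**
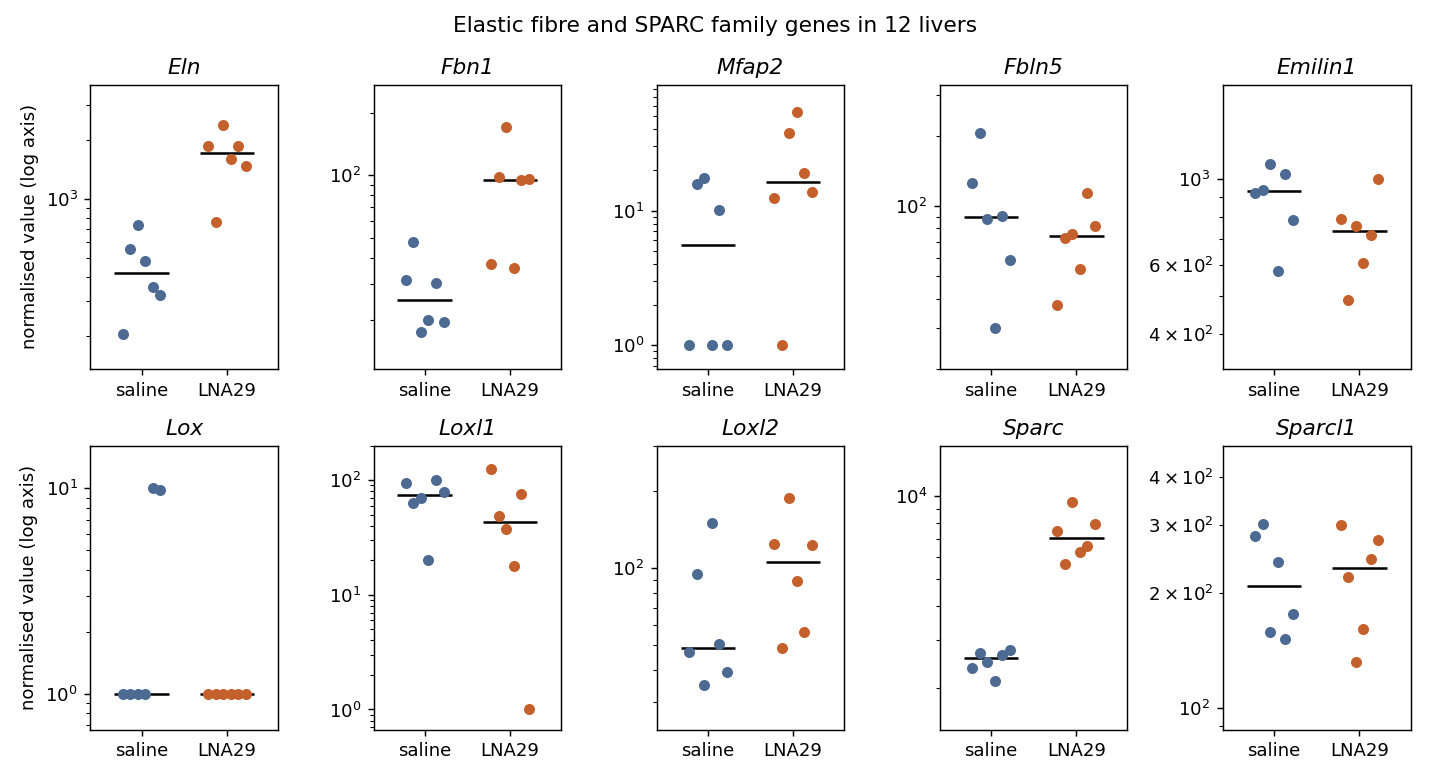
Normalised values (log axis) of the 10 genes in 6 saline and 6 LNA29 livers; each point is a liver, the black line is the group's median, and a value of 1 means no read. Eln and Sparc are the genes whose groups do not overlap, and Lox has no read in 10 of 12 livers.

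Expressed per kilobase of the longest annotated transcript, so that levels can be set between genes, the order in saline livers was led by Sparc at 1093 ± 104 (SD, n = 6), followed by Emilin1 at 231 ± 47.8, Eln at 115 ± 49.3 and Sparcl1 at 79.1 ± 23.6. Sparc stood clear of Emilin1 in every liver, Emilin1 was above Eln in each of the 6 livers although their ranges overlapped between livers, and the ranges of Eln and Sparcl1 overlapped too. The other 6 genes were at 21.6 or less, and neighbours among them overlapped throughout. In LNA29 livers Sparc was at 3153 ± 602 and Eln, at 428 ± 140, was above Emilin1 at 188 ± 45.1 in each of the 6 livers, although their ranges overlapped between livers. Sparc made up 64.7% to 75.2% of the summed level of the 10 genes per kilobase in saline livers and 77.5% to 84.6% in LNA29 livers. The level of Eln relative to that of Sparc was 5.11% to 17.7% in saline livers and 7.94% to 16.7% in LNA29 livers, ranges that overlap.

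**Figure D2:**
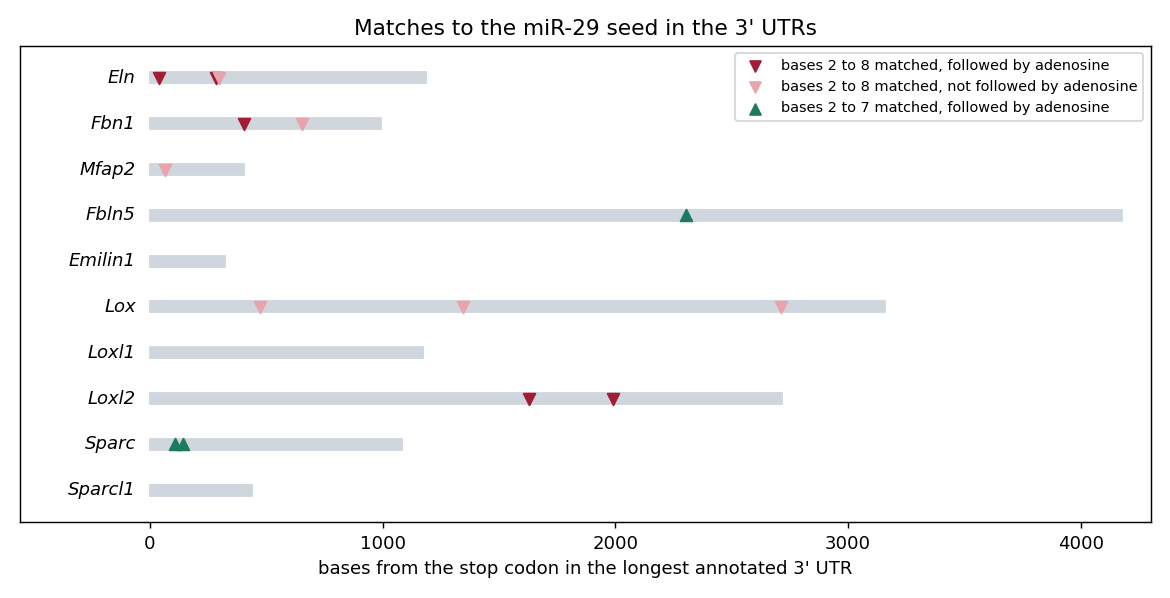
Matches to the complement of the miR-29 seed along the longest annotated 3′ UTR of the 10 genes; the x axis is the distance from the stop codon in bases, grey bars are drawn to scale, downward triangles are TGGTGCT (dark where followed by A) and upward triangles are GGTGCTA alone. Matches of Eln and Sparc lie within 304 and 149 bases of the stop codon.

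Over the whole table, as a description across genes, which are not independent replicates, the 9363 tested genes with 0 matches to TGGTGCT in the 3′ UTR had a median log2 fold change of -0.10, and 37.2% of them were higher in LNA29 livers. With 1 match the median was -0.06 over 1461 genes, with 2 it was 0.01 over 216, and with 3 or more it was 0.08 over 55 genes, of which 61.8% were higher. Eln belongs to the last of these classes and Fbn1 and Loxl2 to the one before it. Genes with GGTGCTA and no TGGTGCT, the class of Sparc and Fbln5, had a median of -0.05 over 388 genes. The 14 of them with at least 2 such matches, as in Sparc, had a median of -0.20, and 6 were higher. At least 4 matches in the coding sequence, as in Eln, were found in 21 tested genes, whose median was -0.12 and of which 6 were higher.

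Variation among livers of the same group was compared after subtracting each group's mean of log2(value + 1), which takes out the contrast that picked Sparc and Eln. Over the 12 livers Sparc and Eln had a correlation of r = 0.43 (Spearman's rho of 0.29), given as a description. With Emilin1, Sparc had r = 0.66 and rho = 0.65, and with Sparcl1 it had r = -0.27 and rho = -0.09. Differences between these correlations, each over 12 livers, were not tested. The closest of the other genes to Eln was Mfap2 (r = 0.76, rho = 0.68), which never exceeded 3 reads. The 5 genes most like Sparc among the 8990 were Slc35c2 (r = 0.946), Cnot10 (r = 0.946), Cd3eap (r = 0.938), Cd52 (r = 0.932) and Prss36 (r = 0.930). Those most like Eln were Btbd1 (r = 0.913), Igsf6 (r = 0.877), Tmem60 (r = 0.850), B230312A22Rik (r = 0.849) and Nenf (r = 0.845). None of these 10 genes had groups that did not overlap, and their log2 fold changes lay between -0.56 and 0.18. Their r values are the highest among 8990 genes over only 12 livers and were not tested. An r above 0.9 was reached by 8 genes (0.0890%) for Sparc and by 1 (0.0111%) for Eln.

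Related genes were described in 5 lists, 46 genes of which 38 could be tested. No gene of these lists reached a limma adjusted p of 0.05, 9 had an unadjusted p under 0.05 (23.7%, against 7.91% of all tested genes), 14 were higher and 24 lower, and the median log2 fold change was -0.18, beside -0.09 over all 12486 tested genes, of which 38.6% were higher. The groups did not overlap for 1 gene that was higher and 1 that was lower, where 0.985% of all tested genes had such groups. Directions here are on the log2(value + 1) scale and differ from those of group means for some genes with few reads.

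Among other microfibril and elastic fibre proteins, 3 of 12 tested genes were higher and 9 lower, with a median log2 fold change of -0.39. Emilin3 had no read in any liver. By group means the direction differed for Fbln1 and Emilin2, counted lower, with LNA29 to saline ratios of 1.01 and 1.08. It also differed for Ltbp2, counted higher, with 0.960. Mmrn1, counted lower but higher by means, never exceeded 3 reads. Fbln2 and Ltbp1, counted lower, each had no read in 2 LNA29 livers and reads in every saline liver. The most abundant was Ltbp4, a binding protein of latent TGF-beta that also helps fibulin-5 deposit elastin, with 1156 to 1860 in saline livers and 1000 to 1868 in LNA29 livers. For Ltbp4, 3 of 6 LNA29 livers lay below all saline livers and replicate 48 above them. The log2 fold change was -0.22 (SE 0.17, limma adjusted p = 0.819), -0.32 without LNA29 replicate 48 and -0.14 without LNA29 replicate 54. Mmrn2, an endothelial relative of the emilins, had a log2 fold change of 0.08 (SE 0.25, limma adjusted p = 0.971). It changed sign without saline 47 (-0.012), LNA29 replicate 44 (-0.022) or LNA29 replicate 52 (-0.001), and was 0.227 without LNA29 replicate 54. Efemp2, the fibulin that brings lysyl oxidase to tropoelastin, and Ltbp3, another binding protein of latent TGF-beta, are named after their values were seen, as the 2 genes of this list with an unadjusted p under 0.05. Efemp2 had 80.0 to 228 in saline livers and 1 (no read, replicate 46) to 110 in LNA29 livers, 5 of which lay below all saline livers (log2 fold change -1.92, SE 0.76, limma adjusted p = 0.498; exact permutation p = 0.0152), and its fold change was -1.13 without LNA29 replicate 46. Ltbp3 had 62.5 to 206 and 18.9 to 125, groups that overlapped (log2 fold change -1.18, SE 0.48, limma adjusted p = 0.513, exact permutation p = 0.0303). The permutation p of Efemp2 and of Ltbp3 uses the values for which they were named, so neither is added support. The summed value of this list was 1875 to 3053 in saline livers and 1696 to 2906 in LNA29 livers.

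The other SPARC family comprised 4 tested genes, 2 higher and 2 lower, with a median log2 fold change of 0.30, and Spock1 and Spock3 had no read in any liver. Smoc1, a basement membrane glycoprotein and by far the most abundant of them, had 2200 to 3016 in saline livers and 1610 to 2547 in LNA29 livers (log2 fold change -0.18, SE 0.14, limma adjusted p = 0.830), with LNA29 replicate 46 as the lowest. The log2 fold change of Smoc1 was -0.08 without that liver and -0.03 with values beyond 1.5 SD left out. In saline livers its level was 725 ± 89.5 per kilobase, against 1093 ± 104 for Sparc (SD, n = 6). Smoc2 had medians of 86.1 and 183 in saline and LNA29 livers (log2 fold change 0.78, SE 0.37, limma adjusted p = 0.631; exact permutation p = 0.0606). Fstl1, a secreted glycoprotein with a SPARC-like domain, is named after its value was seen, for an unadjusted p under 0.05. It had medians of 38.1 and 124, from 23 and 39 reads in all, and groups that overlapped (log2 fold change 1.21, SE 0.55, limma adjusted p = 0.613, exact permutation p = 0.0584). This permutation p uses the values for which Fstl1 was named and is no second test.

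Of the lysyl oxidase relatives and processing enzymes, 2 of 6 tested genes were higher and 4 lower, with a median log2 fold change of -0.17 and 0 at an unadjusted p under 0.05. Furin, a proprotein convertase, was the most abundant at a mean of 14156 (log2 fold change -0.14, SE 0.14). With 1 liver left out its fold change ranged from -0.193 (without LNA29 replicate 52) to -0.085 (without LNA29 replicate 46). Bmp1, the proteinase that frees active lysyl oxidase from its precursor, had 4410 to 6000 in saline livers and 3604 to 5339 in LNA29 livers. The groups overlapped, and its log2 fold change was -0.19 (SE 0.13, limma adjusted p = 0.789). Pcolce, an enhancer of procollagen processing, had a log2 fold change of -0.19 (SE 0.29), and Atp7a, the copper transporter that loads lysyl oxidases, one of 0.48 (SE 0.35). That of Pcolce depended on single livers, being -0.02 without LNA29 replicate 46 and -0.37 without LNA29 replicate 48.

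Receptors of SPARC, elastin and fibulin were all expressed, and 3 of 10 were higher and 7 lower, with a median log2 fold change of -0.16. Itga5, a subunit of the integrin that binds fibronectin and fibulin-5, had 922 to 1225 in saline livers, with a median of 1035, and 1340 to 2094 in LNA29 livers, with a median of 1476. All 6 LNA29 livers lay above all 6 saline livers, and replicate 48, which was also highest for Sparc, Eln and Fbn1, was the highest. The log2 fold change was 0.57 (SE 0.15), with a limma adjusted p of 0.185 that ranged from 0.0308 to 0.420 over the alternatives; it passed 0.05 with the transcript length trend of each liver as a covariate (0.0393) and with values beyond 1.5 SD of their group mean left out (0.0308). Calls over the whole table also went from 20 to 125 and 217 there, and leaving out far values narrows the spread by construction, so neither is added support. The exact permutation test gave p = 0.00216 without adjustment, the smallest that 924 divisions can give. Any gene whose groups do not overlap gets this p, and Itga5 was named for that, so it adds no support. Neu1, the sialidase of the elastin receptor complex, had 1180 to 1596 in saline livers and 1000 to 1151 in LNA29 livers, which lay below without overlap. Neu1 was named for this lack of overlap too, which alone fixes its exact permutation p at 0.00216. Its log2 fold change of -0.30 (SE 0.13, limma adjusted p = 0.590) had a range of adjusted p from 0.202 to 0.825 over the alternatives. Stab1, the scavenger receptor that takes up SPARC, is named after its value was seen, for an unadjusted p under 0.05. It had 1450 to 1895 in saline livers and 982 to 1585 in LNA29 livers, and 5 of 6 LNA29 livers lay below all saline livers (log2 fold change -0.34, SE 0.14, limma adjusted p = 0.567, exact permutation p = 0.0108). That permutation p uses the values for which Stab1 was named and is no second test. Ctsa, the most abundant of the list and the protein that stabilises Neu1, had a log2 fold change of -0.09 (SE 0.14). It was -0.03 without saline 47 and -0.17 without saline 49.

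Among elastin-degrading enzymes, 4 of 6 tested genes were higher and 2 lower, with a median log2 fold change of 0.32. Ctsl, a lysosomal cysteine proteinase that made up 89.0% of the list, had 17123 to 34619 in saline livers, with a median of 23092, and 22717 to 42712 in LNA29 livers, with a median of 37307. The groups overlapped, and the log2 fold change was 0.49 (SE 0.20, limma adjusted p = 0.534; exact permutation p = 0.0519). Mmp2, the gelatinase that also cleaves elastin, had 31.2 to 95.2 in saline livers and 73.2 to 264 in LNA29 livers, which stand for 30 and 51 reads in all. Its log2 fold change was 1.15 (SE 0.41, limma adjusted p = 0.427; exact permutation p = 0.0173). Ctss, a cathepsin of macrophages, had a log2 fold change of -0.20 (SE 0.24). It depended on single livers, being -0.05 without LNA29 replicate 48 and -0.35 without LNA29 replicate 54.

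**Figure D3:**
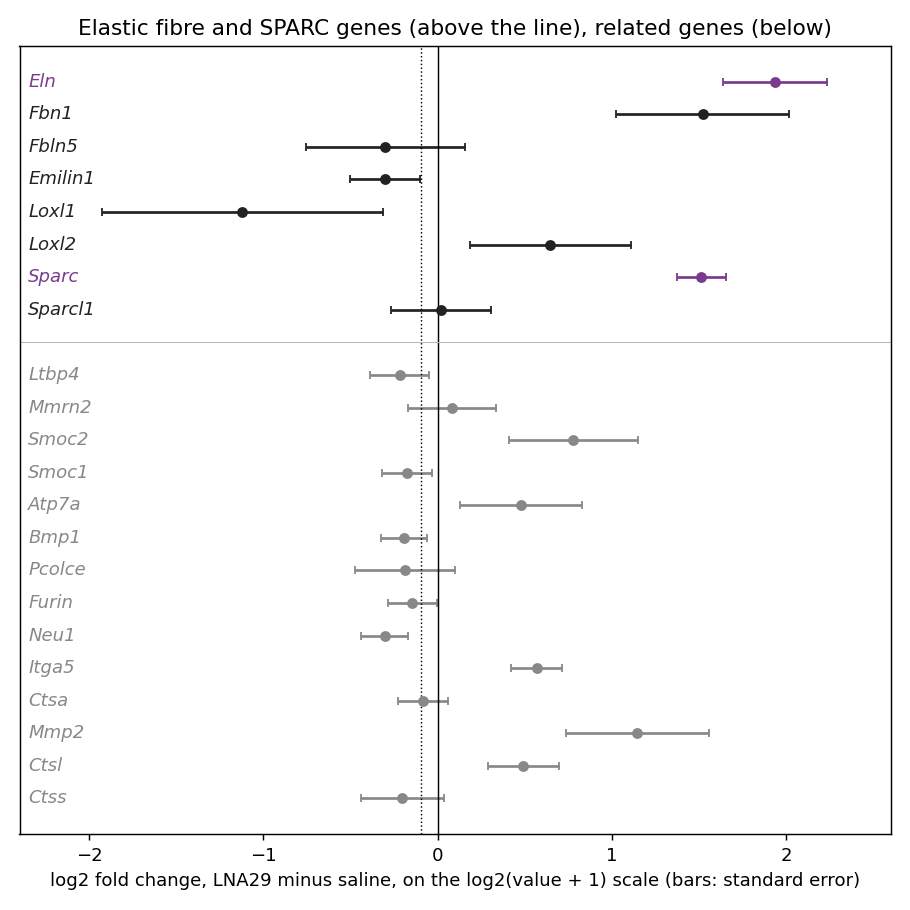
Log2 fold changes (LNA29 minus saline, log2(value + 1) scale) with standard errors from limma, 6 livers a group, for elastic fibre and SPARC genes with more than 3 reads in some liver (above the line; Sparc and Eln, picked for their rise, in purple) and for related genes named by the rule fixed beforehand (grey; genes named after their values were seen are not drawn); the dotted line is the median of all tested genes, -0.09. Eln, Fbn1 and Sparc lie at 1.93, 1.52 and 1.51.

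Markers of the cell types that could carry these mRNAs were summed in each liver; in bulk tissue, fewer cells of a type and less RNA per cell cannot be told apart. Of 46 marker genes tested, 0 passed the threshold after adjustment (against 0.160% of all tested genes) and 1 (2.17%, against 7.91%) had an unadjusted p under 0.05, Marco, a scavenger receptor of macrophages (log2 fold change 1.08, SE 0.37, limma adjusted p = 0.391), named after its value was seen and at 0.73 without LNA29 replicate 54. The 8 hepatic stellate cell markers summed to 14990 to 23298 in saline and 15696 to 19699 in LNA29 livers; 1 was higher and 7 lower, with a median log2 fold change of -0.10, and Ecm1 was the most abundant at 81.3% of the sum. The 5 portal fibroblast markers (1 of them, Entpd2, the most abundant at a mean of 126) summed to 226 to 381 and 238 to 509, and no direction is counted since Gli1 reached the mean needed for testing only in the saline group. The 5 sinusoidal endothelial markers, led by Clec4g at a mean of 1404, summed to 3740 to 4480 and 3189 to 4164, with 1 higher and 4 lower, and the 5 vascular endothelial markers, led by Egfl7 at a mean of 915, to 2460 to 3211 and 2390 to 3247, with 4 higher and 1 lower. No summed list separated the groups, and each marker gene present in the table had reads in at least 1 liver.

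Vascular smooth muscle, a main maker of elastin in vessel walls, was uneven between livers. Its 5 markers, led by Tagln at a mean of 401, summed to 3298 in saline 47 but to 312 to 587 in the other saline livers, and to 1151 in LNA29 replicate 48 but to 300 to 849 in the other LNA29 livers. No direction is counted for this list, since Actg2 and Cnn1 reached the mean needed for testing only in the saline group. By group medians Acta2 and Tagln were higher in LNA29 livers, with ratios of 1.24 and 1.10, and Myh11 was lower, with 0.804. By group means, with saline 47 included, Acta2, Tagln and Myh11 were all lower, with ratios of 0.446, 0.881 and 0.498. Their log2 fold changes were -0.37 (SE 0.77), -0.01 (SE 0.43) and -0.60 (SE 0.52). Saline 47 and LNA29 replicate 48 were also the highest of their group for Eln, and their part in the values of Eln was not tested. Eln had a log2 fold change of 2.11 without saline 47 and 1.81 without LNA29 replicate 48. Actg2 had reads in saline 47 only. Macrophage markers, led by Clec4f at a mean of 3407, summed to 3547 to 6649 in saline and 3571 to 9233 in LNA29 livers, with 1 higher and 4 lower. Bile duct markers, led by Spp1 at a mean of 329, summed to 603 to 891 and 415 to 868, with 3 higher and 2 lower. The 3 blood markers with a row (2 listed globin genes had none) summed to 36507 to 154110 and 37268 to 171275, were led by Hba-a2 at a mean of 80252, and were again highest in saline 47 and LNA29 replicate 48.

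**Figure D4:**
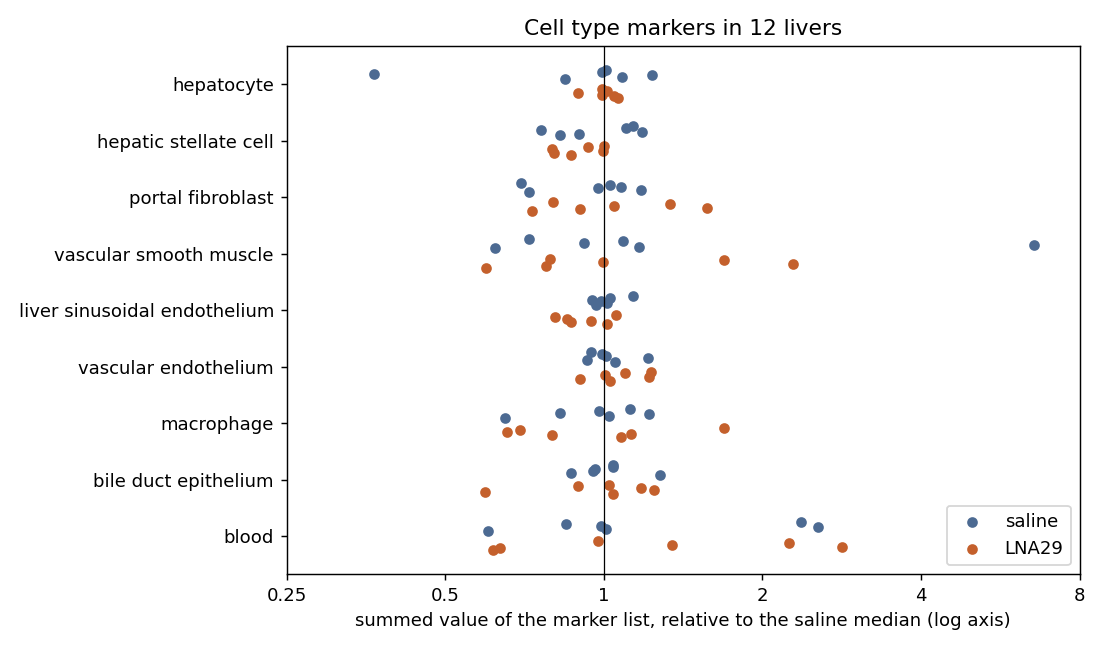
Summed value of each list of cell type markers in 6 saline and 6 LNA29 livers, relative to the median of the saline livers (log axis); each point is a liver. The groups overlap in every list, and saline 47 stands out for vascular smooth muscle with a sum of 3298.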

How the data were processed

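Polyadenylated RNA of 12 livers, 6 saline and 6 LNA29, was sequenced by the authors as single reads, mapped with MapSplice2 and quantified per gene with RSEM; the submitters' processing notes name the build mm9, and versions are not given in the sources used here. The deposited values are a signal: reads scaled to an upper quartile of 1000 in each liver (998.35 in saline 49), with 1 for no read. Between 92.0% and 93.6% of the other values were whole multiples (within 0.02) of the commonest value, taken as the worth of 1 read, and depth is the sum divided by it. The share was too low to treat the values as counts, so no count model was run. The authors' means, fold changes and p-values and 3 unnamed columns were not used.

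The members and gene lists were chosen with earlier results of these data known. Testing used limma 3.58.1 in R 4.3.3 on log2(value + 1) of 12486 genes whose mean reached 10, with the trend option, no covariate, and Benjamini-Hochberg adjustment over all of them (threshold 0.05). An exact permutation p (two-sided) for single genes came from the 924 ways to split 12 livers into 6 and 6. For single genes with at most 3 reads in every liver no fold change is printed; where tested (Mmrn1, Pi16), they stay in the counts and medians of the lists. Of the related lists, the text names each gene called or without overlap, otherwise the 3 with the largest difference among those with a mean of at least 100, and the most abundant; for likeness, the 5 genes with the highest r. Another 5 genes with an unadjusted p under 0.05 (Efemp2, Ltbp3, Fstl1, Stab1 and Marco) were named after their values were seen. Alternatives were pseudocounts of 0.1 and 10, no filter (all genes with a read), a mean of at least 100, a common median, trimmed mean of M values, values beyond 1.5 SD left out, the length trend as a covariate, and leaving out each liver. GGTGCTA and the coding sequence were searched only after the data were seen. Python 3.11.15 with numpy 2.4.6, scipy 1.17.1, pandas 2.3.3 and matplotlib 3.10.9 was used for the other steps, and the fit was tested on simulated data.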

Additional observations from a re-analysis of the deposited data

Results flagged for a closer look

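In 8 of 89 groups of 6 livers a liver lay far from the other 5 by Dixon's test at the 95% level, the gap to the nearest of them set against the group's whole range; chance alone gives about 1 in 20 groups. Saline 47 had a summed value of 3298 for vascular smooth muscle markers, against 312 to 587 in the other saline livers. Albumin took 35.7% of the reads in saline 49, against 43.6% to 46.9% in the other saline livers. Bmp1 had a value of 6000 in saline 43, against 4410 to 4892. LNA29 replicate 46, which was also the lowest LNA29 liver for Eln and Sparc, had 1610 for Smoc1, against 2268 to 2547, and this carried into the sum of the other SPARC family, 1927 against 2575 to 2830. Among genes named after their values were seen, Efemp2 had 228 in saline 47, against 80.0 to 127, and Marco had 984 in saline 45, against 344 to 526, and 3425 in LNA29 replicate 54, against 446 to 988. None of the values of the 10 genes themselves was set apart in this way.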

How the results depend on the processing

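The log2 fold change of Sparc stayed between 1.38 and 1.58 and that of Eln between 1.74 and 2.31 over 20 alternatives. Of the 8 other genes 7 were tested, and none of them had an adjusted p under 0.05 in an alternative that tested it (lowest 0.114); with a mean of at least 100 only Sparcl1 and Emilin1 were, and Lox was tested only without the filter. Of 116 values for these genes without Mfap2, whose mean reached 10 only in the LNA29 group, 110 kept their direction, and the 6 that reversed were all of Sparcl1, with a range of -0.077 to 0.159 when 1 liver was left out. Of 280 values for 14 related genes, 3 reversed, all of Mmrn2 (-0.022 to 0.227 with 1 liver left out), and 2, of Itga5, passed the threshold; 97 values for the 5 genes named after the data were seen kept their direction and side. The number of genes called in the whole table, 20 (9 higher and 11 lower), was 10 with a common median (6 higher and 4 lower), 217 with values beyond 1.5 SD left out (73 higher and 144 lower) and 125 with the length trend as a covariate (37 higher and 88 lower), and it ranged from 1 to 29 with 1 liver left out; with trimmed mean of M values it was 14 (9 higher and 5 lower). The cause of these shifts was not tested. Members with a match to the seed complement were 5 in the longest or in any annotated 3′ UTR, 3 when an A had to follow, 5 for GGTGCTA and 3 in the coding sequence, the last 2 searched after the data were seen. The planned count models, edgeR and DESeq2, were not run, because whole reads could not be recovered for enough values. No fold change can be read for Mfap2 and Lox at this depth, and those of Fbn1, Fbln5, Loxl1 and Loxl2 rest on 15 reads a liver or fewer. No paired analysis was possible because the groups share no replicate number.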
